A study of Homo sapiens with 8 samples.

Results

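The transcriptional coactivators YAP and TAZ, the TEAD factors that carry them to DNA, and their target genes were followed in renal cell carcinoma (RCC) cells given or denied branched-chain amino acids (BCAAs). The 10 genes were taken by name: the coactivators YAP1 and WWTR1 (the gene of TAZ), the factors TEAD1 and TEAD4, the kinase LATS2, and the targets CCN1 (CYR61), CCN2 (CTGF), ANKRD1, AMOTL2 and AXL. All 10 were found by Ensembl identifier in both deposited tables, out of 27776 genes listed in either, and all 10 passed the filter on low values in both. RNA was sequenced from 769-P and CAKI-1, established human RCC cell lines that the labels describe as clear cell carcinoma cells, after 16 hours with or without BCAA. Cells with BCAA received 0.38 mM of leucine, 0.38 mM of isoleucine and 0.17 mM of valine, and cells without received none of the 3. According to the study's methods, its BCAA-depleted medium was RPMI made up from amino acid-free powder, with dialysed serum. There were 2 libraries in each of the 4 groups, 8 in all. Each cell line stands for a single tumour.

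In the Hippo pathway, the kinases MST1 and MST2 (STK4 and STK3) activate LATS1 and LATS2, which phosphorylate YAP and TAZ and keep them out of the nucleus. When the kinases are quiet, YAP and TAZ enter the nucleus, bind a TEAD factor and switch on genes of adhesion, matrix and growth. LATS2 and AMOTL2 are themselves targets and act back on the pathway as inhibitors, so a target gene's RNA is often read as a sign of pathway activity, although other inputs also reach these genes. In the kidney, YAP and TAZ are known for their part in tubular repair and fibrosis.

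The values are normalised read counts, that is, reads per gene divided by a size factor of the library. Between 30979773 and 64256834 reads lay on listed genes in a library, and a member gene had between 310 and 49522 reads. In 769-P the libraries with BCAA were deeper (64256834 and 55829324 reads) than those without (39062721 and 40130258), so depth and condition went together there. Of 7 renal markers, 6 were listed in 769-P and 5 in CAKI-1, and each of these had a mean of at least 100, while CA9, a hallmark of clear cell carcinoma, was in neither table and PAX2 was not in that of CAKI-1. Of fibroblast markers, 3 of 5 (COL1A1, COL1A2 and LUM) had a mean of at least 100 in CAKI-1. The other markers were low there, with DCN between 26.3 and 50.2 and PDGFRA between 0 and 3.33. Endothelial and leukocyte markers summed to at most 11.4 in any library, and the erythroid markers were not listed. Markers moved with condition within a line and are given beside the results they touch. In bulk RNA, fewer cells expressing a gene and less of its RNA in each cell cannot be told apart.

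TEAD factors bind the letters GGAATG, or CATTCC when read on the other strand, and these were looked for in the 250 bases before each start site that RefSeq (GRCh38.p14) lists. Promoters of 7 of the 10 genes were in the table, while CCN1, TEAD1 and TEAD4 had none there and were not searched. Of all 35116 promoters in it, 11.9% held the letters at least once, 0.940% at least 2 times and 0.0826% at least 3 times. CCN2 held them 3 times, ANKRD1 2 times and YAP1 once. AMOTL2 and AXL held them once each, as CATTCC, before a second listed start and not before the other, while WWTR1 and LATS2 held none in this window. These are matches of letters and not sites shown to be bound. Shown are the stretch with the CCN2 matches (chr6:131951447-131951556, minus strand, ending 75 bases before the start) and 30-base windows around other matches. The windows are those of ANKRD1 (chr10:90921290-90921319 and chr10:90921198-90921227, minus strand) and YAP1 (chr11:102110273-102110302, plus strand). CCN2 and ANKRD1, the members with repeated matches, both fell in 769-P and moved apart in CAKI-1. YAP1, with a match before its only listed start, was slightly higher in both lines. The matches of AMOTL2 and AXL, which fell in 769-P, are not shown. A relation between the letters and the BCAA effect was not tested. Capitals mark the matched letters.
CCN2: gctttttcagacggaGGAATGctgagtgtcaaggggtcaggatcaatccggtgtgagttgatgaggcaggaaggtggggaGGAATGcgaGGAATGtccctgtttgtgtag
ANKRD1, farther match: atcaccaccaaaGGAATGgccctctcacat
ANKRD1, nearer match: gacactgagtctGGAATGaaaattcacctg
YAP1: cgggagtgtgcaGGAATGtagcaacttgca

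In 769-P, genes of the same pathway differed in opposite directions between cells with and without BCAA. A rise or fall is throughout a difference with BCAA against without, at a single time. No library came from before the treatment, so which of the conditions changed cannot be told. The coactivator gene WWTR1 rose and YAP1 rose slightly, while LATS2, TEAD4 and all 5 targets fell. Thus 2 of 10 genes were higher and 7 lower at an adjusted p under 0.05, with TEAD1 not called. Over all 22391 genes tested in 769-P, 20.3% were called higher and 18.2% lower, so large numbers of genes moved. The share of risers among the 10 is that of the background and the share of fallers is above it. The 10 genes were chosen with earlier results of these data known, so these shares are not a test. In CAKI-1 fewer of the same genes were called. There, 2 of 10 were higher (YAP1 and CCN2), 1 was lower (ANKRD1) and 7 were not called, against 10.8% higher and 9.05% lower of the 21347 genes tested. The difference between the lines was tested directly, as the BCAA effect in 769-P minus that in CAKI-1. It was called for 7 of 10 genes, 1 further up in 769-P (WWTR1) and 6 further down (TEAD4, LATS2, CCN1, CCN2, AMOTL2 and AXL), against 10.9% and 10.1% of 19406 genes. Every p below is an adjusted p (Benjamini-Hochberg over all genes tested) from limma, unless another tool is named, fold changes are on the log2(value + 1) scale, and intervals are 95%. The labels do not say that the libraries of a group came from separate cultures, so p-values measure the spread between these libraries, which may be technical. In limma the spread of each gene is also drawn toward that of genes of like level. The p-values therefore rest partly on other genes. A permutation test of 2 against 2 libraries cannot go below 0.333. With any 1 library left out and the spread taken from the 3 that remained in the line, 3 to 5 of the 10 genes were called in 769-P. In CAKI-1 this left 0 of the 10 and 0 of all 21347 genes called by limma, with 1 to 4 of the 10 at an unadjusted p under 0.05. Under quantile normalization the CAKI-1 calls were 1 higher and 1 lower.

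**Figure D1:**
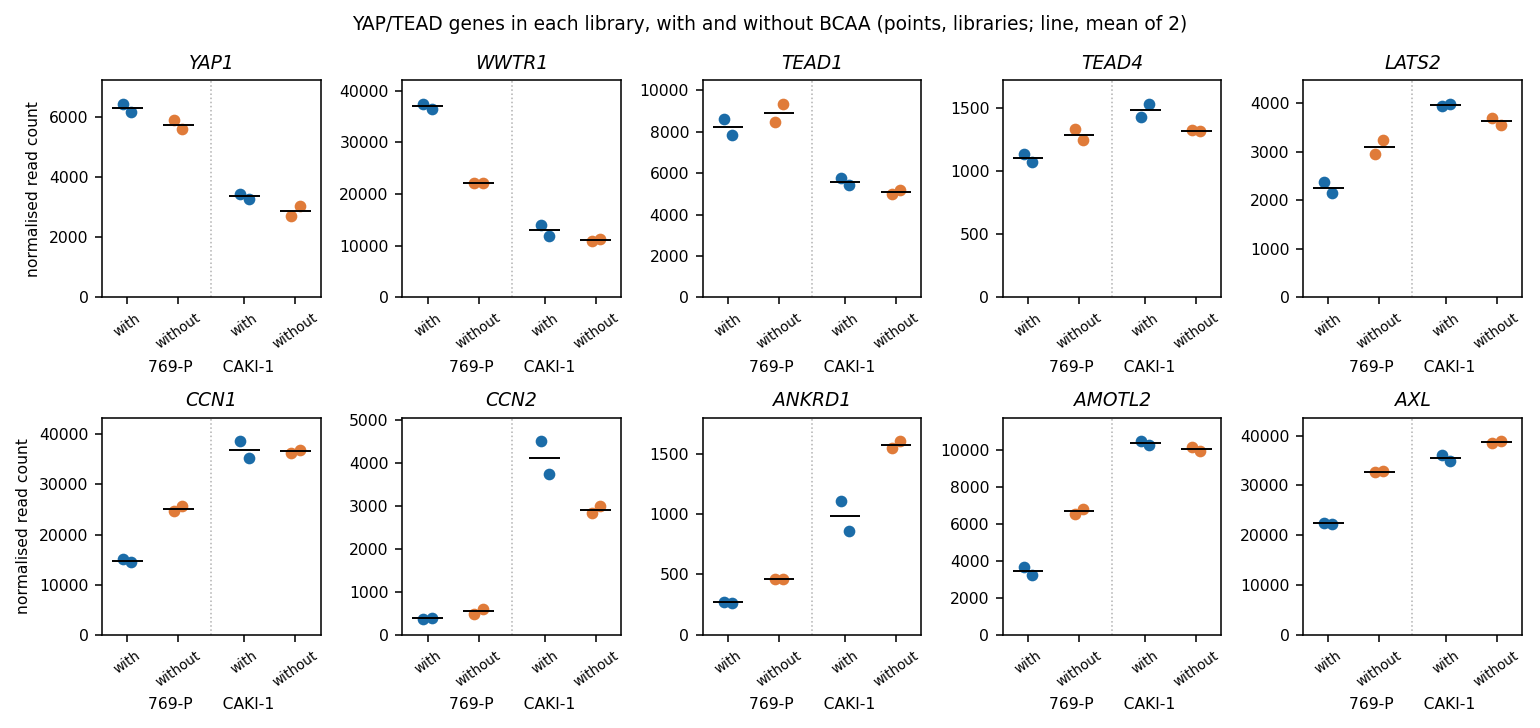
Normalised read count (vertical axes, each from 0) of the 10 genes in each library (points), by cell line and BCAA, with the mean of the 2 libraries as a line. The tables of the cell lines were scaled separately, so a panel should be read within a line. In 769-P the points with BCAA lie below those without for CCN1, CCN2, ANKRD1, AMOTL2 and AXL and above them for WWTR1.

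WWTR1 encodes TAZ, the paralogue of YAP. It lies on chromosome 3, 149517235 to 149736714, on the minus strand (GRCh38, GENCODE 29, as for all genes here). In 769-P it had 37548 and 36446 normalised reads with BCAA and 22208 and 22158 without, a gap far wider than the spread within either condition. The fold was 1.67, or 0.74 on the log2 scale (SE 0.038, interval 0.65 to 0.82, adjusted p = 2.19e-08). In CAKI-1 the values were 13941 and 11959 with BCAA and 10957 and 11333 without. All CAKI-1 values with BCAA exceeded those without, but by little (log2 difference 0.21, SE 0.071, interval 0.056 to 0.37, adjusted p = 0.0579, not called). With the spread from the other 7 libraries, the CAKI-1 difference was 0.10 without replicate 1 with BCAA (adjusted p = 0.176) and 0.32, and called, without replicate 2 with BCAA (adjusted p = 3.0e-04). It was also called with the spread of all 8 libraries (adjusted p = 0.0201), after median centering (adjusted p = 0.0489) and by DESeq2 (adjusted p = 0.0272). The rise was larger in 769-P than in CAKI-1 by 0.53 (SE 0.086, adjusted p = 6.71e-04). About 9.45% of the exon bases of WWTR1 overlap an antisense gene, WWTR1-AS1, and the strand setting of the counting is not given in the sources used here.

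YAP1, the founding coactivator (chromosome 11, 102110461 to 102233423, plus strand), moved little in either line. Its normalised reads were 6443 and 6175 with BCAA and 5890 and 5600 without in 769-P. In CAKI-1 they were 3438 and 3268 with BCAA and 2704 and 3041 without. The conditions did not overlap in either line, and the log2 differences were 0.14 (SE 0.049, adjusted p = 0.0463) in 769-P and 0.23 (SE 0.071, adjusted p = 0.0466) in CAKI-1. Both calls lie at the threshold and were lost when any of several choices changed. With the replicate number as a block, the adjusted p was 0.0511 in 769-P and 0.0640 in CAKI-1, and after thinning all libraries to equal depth it was 0.114 and 0.131. Leaving out either library with BCAA or either without in 769-P, with the spread from the other 7 libraries, gave adjusted p from 0.136 to 0.398. In CAKI-1 the call was lost without replicate 1 with BCAA (0.19, adjusted p = 0.0994) and without replicate 1 without BCAA (0.14, adjusted p = 0.186). The effects of the lines were not shown to differ (769-P minus CAKI-1, -0.09, interval -0.28 to 0.10, adjusted p = 0.532). An antisense gene overlaps 9.97% of its exon bases.

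Levels of different genes, and of the lines, can be set side by side only per length. For this, the recovered reads were expressed per kb of exon and per 1000000 listed reads of the library. On that scale WWTR1 was the larger RNA pool in every library. Its level was 91.2 ± 0.61 (SD, n = 2) with BCAA and 54.0 ± 0.52 without in 769-P, then 39.2 ± 4.1 and 33.4 ± 0.60 in CAKI-1. YAP1 followed the same order at 20.8 ± 0.33, 18.7 ± 0.82, 13.6 ± 0.43 and 11.5 ± 0.89. WWTR1 made up 81.3% and 81.5% of the summed YAP1 and WWTR1 level with BCAA in 769-P, against 73.8% and 74.8% without. In CAKI-1 its share was 75.2% and 73.3% with BCAA and 75.2% and 73.6% without, so the conditions overlapped there.

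**Figure D2:**
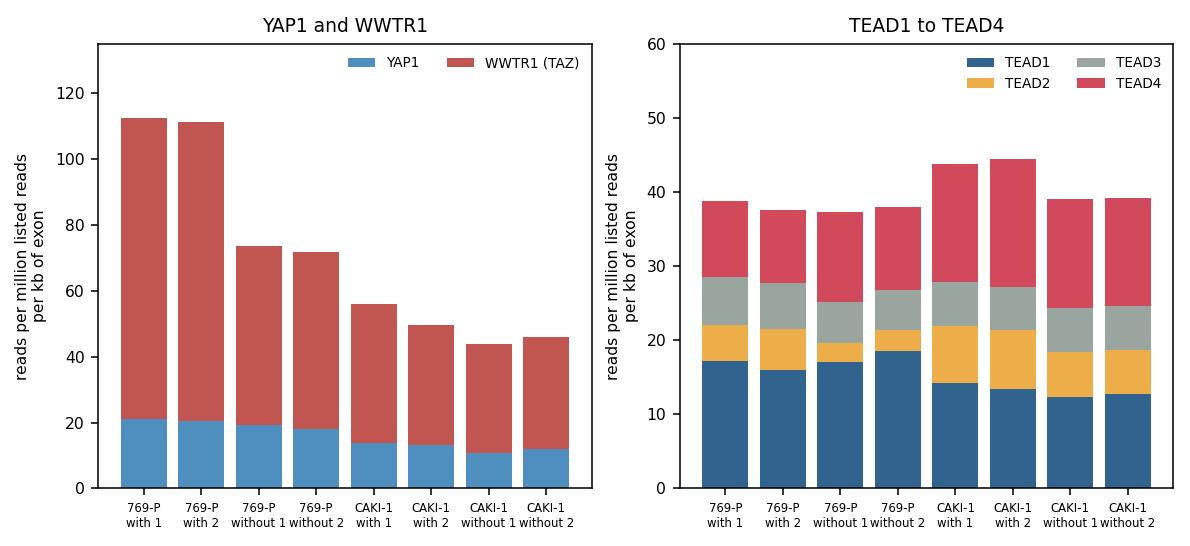
Stacked levels in reads per kb of exon per 1000000 listed reads (vertical axes) in each of the 8 libraries for YAP1 and WWTR1 (left) and for TEAD1 to TEAD4 (right). The summed YAP1 and WWTR1 level was 113 and 111 with BCAA and 73.7 and 71.8 without in 769-P, while the TEAD sum there lay between 37.3 and 38.7 in all 4 libraries.

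The TEAD genes did not move as a block. TEAD1, a DNA-binding partner of YAP and TAZ (chromosome 11, 12674591 to 12944483, plus strand), had 8630 and 7825 normalised reads with BCAA and 8479 and 9360 without in 769-P, with the conditions overlapping. In CAKI-1 it had 5746 and 5405 with BCAA and 5012 and 5204 without. It was called in neither line (log2 difference -0.12, interval -0.25 to 0.014, adjusted p = 0.153 in 769-P, and 0.13, interval -0.0050 to 0.26, adjusted p = 0.176 in CAKI-1). The difference between lines was -0.24 (adjusted p = 0.0704), and it was called without replicate 1 with BCAA of 769-P (adjusted p = 0.0382) or without replicate 2 with BCAA of CAKI-1 (adjusted p = 0.0456).

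TEAD4, another of the 4 TEAD factors (chromosome 12, 2959330 to 3040673, plus strand), had 1132 and 1074 normalised reads with BCAA and 1335 and 1244 without in 769-P. It thus fell by 0.22 on the log2 scale (SE 0.072, adjusted p = 0.0278), with no overlap. The call was lost without replicate 2 with BCAA (-0.19, adjusted p = 0.138) and without replicate 1 without BCAA (-0.17, adjusted p = 0.172), with the spread from the other 7 libraries, and after thinning to equal depth (adjusted p = 0.0696). In CAKI-1, TEAD4 had 1426 and 1535 with BCAA and 1324 and 1314 without (0.17, SE 0.074, adjusted p = 0.152). The lines differed by -0.39 (SE 0.10, adjusted p = 0.0144), a call that was lost without the same 2 libraries of 769-P (adjusted p = 0.0631 and 0.0732).

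TEAD2 and TEAD3, taken from a list of other pathway genes, complete the family. TEAD3 had 960 and 903 normalised reads with BCAA and 828 and 810 without in 769-P (log2 difference 0.18, adjusted p = 0.0837) and was not called in CAKI-1 either (-0.03, adjusted p = 0.851). TEAD2 had 698 and 794 normalised reads with BCAA and 375 and 419 without in 769-P, a rise of 0.91 (SE 0.10, adjusted p = 2.16e-05). In CAKI-1 it had 905 and 922 with BCAA and 721 and 709 without (0.35, SE 0.083, adjusted p = 0.0118), although that call was lost when any CAKI-1 library was left out with the spread from the other 7 (adjusted p from 0.0530 to 0.0767). Per length, TEAD2 made up 12.4% and 14.8% of the TEAD sum with BCAA in 769-P against 6.95% and 7.55% without. TEAD1 had the largest share in 769-P, between 42.4% and 48.8%, and TEAD4 in CAKI-1, between 36.4% and 38.8%. The order of TEAD1 and TEAD4 per length was thus reversed between the lines in every library, with or without BCAA. Before division by length, TEAD1 had more reads than TEAD4 in every library. The CAKI-1 order therefore depends on the exon lengths used, 10279 bases for TEAD1 and 2272 for TEAD4.

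LATS2, the kinase that inhibits YAP and TAZ and is itself a target gene (chromosome 13, 20973032 to 21061547, minus strand), fell with BCAA in 769-P. Its normalised reads were 2369 and 2155 with BCAA and 2951 and 3239 without, and the conditions stood apart (log2 difference -0.45, SE 0.066, adjusted p = 1.58e-04). In CAKI-1 they were 3953 and 3994 with BCAA and 3703 and 3550 without. This was a difference of 0.13 (SE 0.059, interval 0.0017 to 0.26, adjusted p = 0.153), not called. The lines differed by -0.58 (SE 0.091, adjusted p = 4.31e-04).

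CCN1 encodes a secreted matricellular protein that binds integrins and is among the best-known YAP targets (chromosome 1, 85580761 to 85583962, plus strand). In 769-P it had 15087 and 14478 normalised reads with BCAA and 24641 and 25663 without. The level with BCAA was 0.588 of that without (log2 difference -0.77, SE 0.042, interval -0.86 to -0.68, adjusted p = 3.65e-08). In CAKI-1 the values with BCAA, 38682 and 35187, lay on both sides of those without, 36329 and 36921. The difference in CAKI-1 was 0.01 (interval -0.12 to 0.14, adjusted p = 0.932), and its sign turned without replicate 1 with BCAA (-0.06, adjusted p = 0.499, spread from the other 7 libraries). The effects differed by -0.78 (SE 0.073, adjusted p = 6.70e-06).

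CCN2, the connective tissue growth factor and a paralogue of CCN1 (chromosome 6, 131948176 to 131951373, minus strand), moved in opposite directions in the 2 lines. In 769-P it had 373 and 398 normalised reads with BCAA and 484 and 598 without, and fell by 0.48 on the log2 scale (SE 0.12, adjusted p = 0.00637). In CAKI-1 it had 4507 and 3729 with BCAA and 2821 and 2994 without, a rise of 0.50 (SE 0.085, adjusted p = 0.00177). Both libraries with BCAA stood below both without in 769-P and above both in CAKI-1, and the effects differed by -0.98 (SE 0.15, interval -1.30 to -0.66, adjusted p = 3.83e-04). Without replicate 1 with BCAA, the CAKI-1 rise was 0.36 (adjusted p = 0.0517, spread from the other 7 libraries). An antisense gene overlaps 8.34% of its exon bases. Of 5 fibroblast markers, COL1A1 rose with BCAA in CAKI-1 (log2 difference 0.31, adjusted p = 0.0427). COL1A2 (0.10, adjusted p = 0.755), LUM (-0.06, adjusted p = 0.637) and DCN (-0.68, adjusted p = 0.199) were not called. The sum of the 5 was 123856 and 148001 with BCAA and 101570 and 119388 without, almost all of it COL1A1, and was between 147 and 216 in 769-P. PDGFRA, a defining fibroblast receptor, was at 0 in 3 of the 4 CAKI-1 libraries and at 3.33 in the other. The relation of these markers to the CCN2 result was not tested.

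ANKRD1, a nuclear ankyrin-repeat protein and strong YAP target (chromosome 10, 90912096 to 90921276, minus strand), was the only 1 of the 10 called lower in both lines. It had 274 and 265 normalised reads with BCAA and 463 and 461 without in 769-P (log2 difference -0.77, SE 0.11, adjusted p = 1.29e-04). In CAKI-1 it had 1112 and 859 with BCAA and 1544 and 1606 without (-0.69, SE 0.11, adjusted p = 0.00109). The conditions stood apart in both lines, and the effects were not shown to differ (-0.09, interval -0.43 to 0.25, adjusted p = 0.759). The sign of that difference turned to 0.10 without replicate 1 with BCAA of CAKI-1. CCN2 and ANKRD1, the 2 searched members with repeated GGAATG letters, thus both fell in 769-P, where CCN1, AMOTL2 and AXL fell as well. In CAKI-1 CCN2 and ANKRD1 moved apart. The nearer ANKRD1 match lies inside the gene span given here, which begins upstream of the RefSeq start.

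AMOTL2, an angiomotin family protein that holds YAP at cell junctions (chromosome 3, 134355874 to 134375479, minus strand), had the widest change of the 10 in 769-P. Its normalised reads were 3657 and 3199 with BCAA and 6524 and 6797 without, a ratio of 0.515 (log2 difference -0.96, SE 0.063, interval -1.10 to -0.82, adjusted p = 1.72e-07). In CAKI-1 they were 10467 and 10250 with BCAA and 10145 and 9922 without (0.05, interval -0.07 to 0.16, adjusted p = 0.615). The lines differed by -1.01 (SE 0.085, adjusted p = 2.33e-06), the only difference that also reached 2-fold. A pseudogene, RPL39P5, overlaps 3.13% of its exon bases on the same strand.

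AXL, a receptor tyrosine kinase linked to invasion (chromosome 19, 41219203 to 41261766, plus strand), had 22514 and 22250 normalised reads with BCAA and 32631 and 32890 without in 769-P. It fell by 0.55 on the log2 scale (SE 0.037, interval -0.63 to -0.47, adjusted p = 2.35e-07). In CAKI-1 it had 36106 and 34853 with BCAA and 38485 and 38926 without. That was a difference of -0.13 (SE 0.054, adjusted p = 0.134), not called, but called without replicate 1 with BCAA (-0.15, adjusted p = 0.0312) or with the spread of all 8 libraries (adjusted p = 0.0446). The lines differed by -0.42 (SE 0.060, adjusted p = 2.09e-04).

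**Figure D3:**
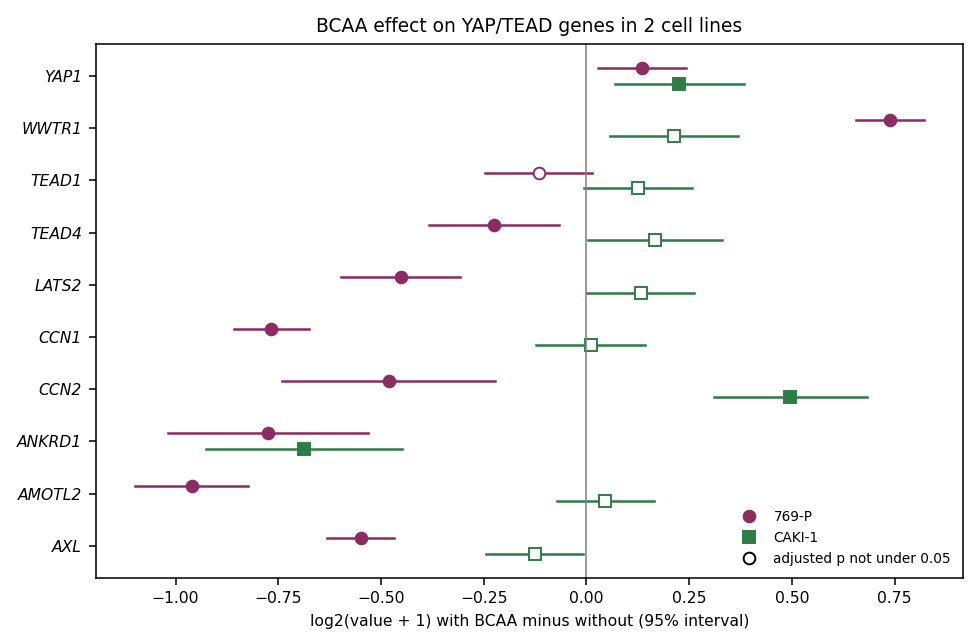
Log2 difference with BCAA minus without (horizontal axis, points) and its 95% interval (lines) for the 10 genes in 769-P (circles) and CAKI-1 (squares), with open symbols where the adjusted p was not under 0.05. AMOTL2 and CCN1 lie at -0.96 and -0.77 in 769-P and near 0 in CAKI-1, CCN2 lies on opposite sides of 0, and ANKRD1 lies at -0.77 and -0.69.

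On the scale per length, each of the 5 targets was lowest in 769-P with BCAA. CCN2 was 3.42 ± 0.20 with BCAA and 4.74 ± 0.67 without in 769-P, against 31.3 ± 1.1 without and 44.8 ± 5.8 with BCAA in CAKI-1. CCN1 was 125 ± 1.8, 210 ± 4.3, 376 ± 2.1 and 383 ± 24 in the same order, and the CAKI-1 conditions did not differ beyond their spread. CCN1 exceeded CCN2 34.7 to 48.5 times in the libraries of 769-P and 8.18 to 12.3 times in those of CAKI-1. AMOTL2 ranged from 11.9 ± 0.95 in 769-P with BCAA to 44.1 ± 0.48 in CAKI-1 with BCAA, and AXL from 90.0 ± 0.54 in 769-P with BCAA to 189 ± 0.42 in CAKI-1 without. ANKRD1 was 2.83 ± 0.029 and 4.79 ± 0.055 in 769-P and 12.7 ± 2.3 and 20.0 ± 0.44 in CAKI-1, with and without BCAA respectively. The coactivators were ordered the other way, with WWTR1 and YAP1 highest in 769-P with BCAA. These orders set levels across tables that list different genes (25431 in 769-P and 24190 in CAKI-1), so the listed reads used for scaling are not alike. They also rest on the union of exons as the length of each gene.

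The depth of the libraries went with condition in 769-P, so the reads were also thinned to 30979773 per library. Of the 10 genes, 7 were then called in 769-P, 1 higher and 6 lower, and 7 differed between the lines. Several renal markers moved as well. In 769-P the 6 listed renal markers summed to 128670 and 132671 with BCAA and 137646 and 139944 without, and in CAKI-1 the 5 listed summed to 84930 and 88984 with and 122703 and 126682 without. Most of the CAKI-1 sum was VIM, at 64620 and 65548 with BCAA and 104102 and 100173 without. In 769-P, 2 of the 6 were higher and 2 lower. The renal lineage factor PAX8 fell by 0.64 on the log2 scale (adjusted p = 1.30e-07) and NNMT fell by 0.87 (adjusted p = 8.17e-05), while PAX2, another lineage factor, rose by 0.29 (adjusted p = 0.00728) and the keratin KRT8 by 0.18 (adjusted p = 0.00198). In CAKI-1, 2 of the 5 were lower and the others were not called. VIM, a mesenchymal filament, fell by 0.65 (adjusted p = 2.07e-05) and the keratin KRT18 fell by 0.27 (adjusted p = 0.0435). Their part in the results above was not tested.

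Of 12 other Hippo kinases and their activators, 3 were higher and 5 lower in 769-P, and 5 were higher and 0 lower in CAKI-1. Over all genes tested, 20.3% were higher and 18.2% lower in 769-P, and 10.8% and 9.05% in CAKI-1. The median log2 differences of the 12 were -0.09 and 0.17, beside -0.02 and -0.01 over all genes tested. WWC1 (KIBRA, an upstream activator) was called lower in 769-P and higher in CAKI-1. It had 17055 and 16375 normalised reads with BCAA and 26127 and 26630 without in 769-P (-0.66), and 10168 and 10424 with against 9056 and 8834 without in CAKI-1 (0.20), a difference of -0.86 between the lines (adjusted p = 7.11e-07). The scaffold SAV1 (-0.64) and the kinase TAOK1 (-0.42) fell in 769-P, where TAOK2 (0.22), NF2 (merlin, 0.22) and MOB1A (0.18) rose. In CAKI-1, NF2 (0.44), MOB1A (0.33) and STK3 (0.32) rose. NF2 had 6713 and 6100 normalised reads with BCAA there and 4653 and 4799 without. For the count of 0, limma had 1 gene of the list lower at an unadjusted p under 0.05, edgeR 1 and DESeq2 0, and neither of the latter called any. The rises of NF2, MOB1A and TAOK2 in 769-P were lost without replicate 1 with BCAA or without replicate 1 without BCAA, with the spread from the other 7 libraries (adjusted p from 0.0507 to 0.120), and that of MOB1A also after thinning (adjusted p = 0.0537).

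Of 13 other TEADs, cofactors and adaptors, 11 were listed and tested in 769-P, of which 5 were higher and 4 lower, and 12 in CAKI-1, of which 1 was higher and 1 lower (median 0.18 and -0.02). Over all genes tested, 20.3% were higher and 18.2% lower in 769-P, and 10.8% and 9.05% in CAKI-1. The CAKI-1 counts of this list are near those shares. The LATS-inhibiting adaptor AJUBA fell furthest in 769-P. It had 3486 and 3176 normalised reads with BCAA and 8308 and 8207 without, and fell by 1.31 on the log2 scale (adjusted p = 3.56e-09), while in CAKI-1 it had 8511 and 7763 with and 8626 and 8422 without. FRMD6 (-0.78) and FAT1 (-0.44) also fell in 769-P. The call of FAT1 was lost when any 769-P library was left out with the spread from the other 7 (adjusted p from 0.0563 to 0.253). That spread includes CAKI-1, where FAT1 had 13967 and 22996 normalised reads without BCAA. In 769-P it had 41662 and 35816 with BCAA and 52387 and 52087 without. The angiomotins AMOT (0.67) and AMOTL1 (0.66) rose in 769-P, opposite to their relative AMOTL2. VGLL4, which competes with YAP for TEADs, rose by 0.25 in 769-P and fell by 0.32 in CAKI-1, a difference of 0.57 (adjusted p = 5.82e-04). Antisense genes overlap 22.1% of the exon bases of VGLL4 (ATG7), 14.9% of SAV1 (ATL1) and 10.7% of TEAD2 (CD37). For TGFB2, named below, TGFB2-OT1 overlaps 26.6% on the same strand.

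Of 16 other YAP/TEAD target genes, 3 were higher and 9 lower in 769-P, and 3 were higher and 2 lower in CAKI-1 (median -0.46 and 0.11). Over all genes tested, 20.3% were higher and 18.2% lower in 769-P, and 10.8% and 9.05% in CAKI-1. The medians of the 16 sit close to those of the 10 genes, -0.47 and 0.13. The 10 also hold coactivators, TEAD factors and the kinase LATS2, so the lists are not alike in kind. In 769-P the members CCN1, CCN2, ANKRD1, AMOTL2 and AXL lay between -0.96 (AMOTL2) and -0.48 (CCN2), each below the median of the 16. In CAKI-1 these members lay between -0.69 (ANKRD1) and 0.50 (CCN2). Both lists were chosen with earlier results of these data known, so the nearness of their medians is not independent support. The kinase NUAK2, itself an activator of YAP, had 1394 and 1219 normalised reads with BCAA and 3978 and 4127 without in 769-P (-1.64), and 1950 and 2188 with against 2525 and 2603 without in CAKI-1 (-0.31). The growth arrest gene GADD45A had 2597 and 2602 with BCAA and 7417 and 7337 without in 769-P (-1.50) and was not called in CAKI-1 (-0.13, adjusted p = 0.174). F3, the tissue factor gene, had 66.7 and 70.1 with BCAA and 217 and 197 without in 769-P (-1.58). These 3 were among the falls, as was MYOF, which was lower in both lines (-0.77 in 769-P and -0.38 in CAKI-1). The CAKI-1 call of MYOF was lost under quantile normalization (-0.30, adjusted p = 0.0580).

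IGFBP3, a secreted binder of insulin-like growth factors, rose in both lines, by 0.58 in 769-P and 0.71 in CAKI-1, where it had 30061 and 25110 normalised reads with BCAA and 15831 and 17824 without. NT5E (0.61) and FJX1 (0.56) rose in 769-P. In CAKI-1 the matrix gene CCDC80 (0.41) and the growth factor TGFB2 (0.30) rose. With a library left out and the spread from the other 7, 3 CAKI-1 calls were lost: TGFB2 without any of the 4 libraries (adjusted p from 0.178 to 0.475), CCDC80 without any but replicate 2 with BCAA (adjusted p from 0.0800 to 0.134), and NUAK2 without replicate 1 with BCAA (adjusted p = 0.0752) or replicate 2 without BCAA (adjusted p = 0.0568). The call of TGFB2 was also lost under quantile normalization (adjusted p = 0.0566) and with the spread of all 8 libraries (adjusted p = 0.103). The spread from other libraries includes 769-P, where CCDC80 had only 58.4 to 78.7 normalised reads and TGFB2 only 9.41 to 17.1.

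**Figure D4:**
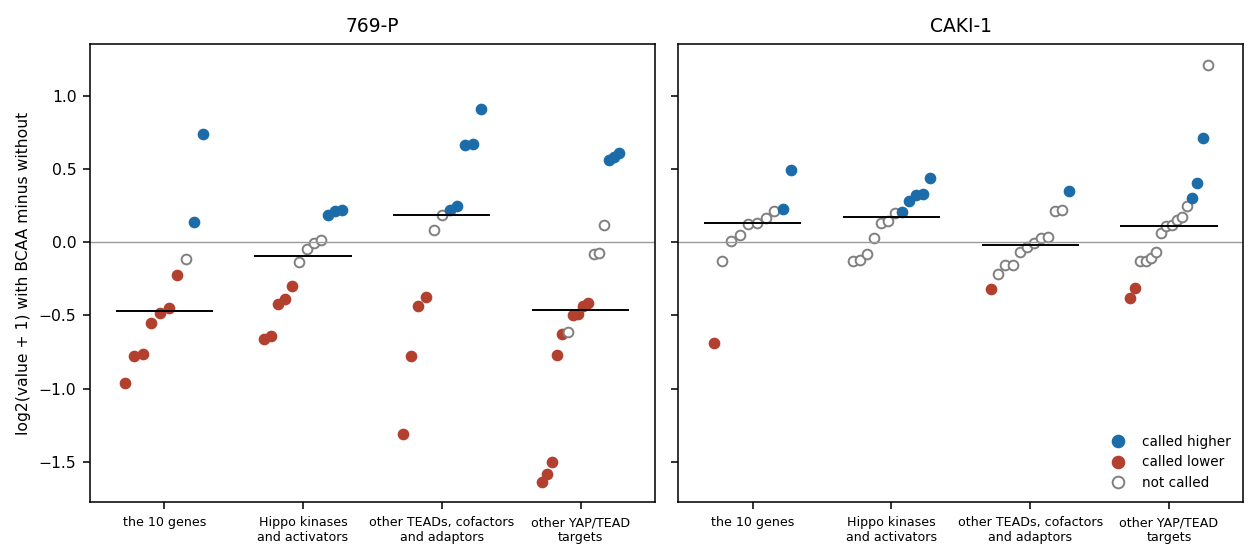
Log2 difference with BCAA minus without (vertical axis) of every tested gene of 4 lists (points, sorted within a list) in 769-P and CAKI-1, with the median of each list as a line. The medians of the 10 genes and of the other targets are -0.47 and -0.46 in 769-P and 0.13 and 0.11 in CAKI-1. The 10 genes include coactivators, TEAD factors and LATS2, so these lists are not alike in kind. The lists were chosen with earlier results of these data known.

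The genes whose pattern over the 8 libraries was nearest to that of CCN1 and CCN2 were sought among 10880 others with a mean of at least 100 in both tables, by Euclidean distance of log2 values centred on each line. The 3 nearest to CCN1 were PRKAB2, ANKLE2 and SLC48A1, at distances of 0.064, 0.065 and 0.087, with log2 differences of -0.73, -0.72 and -0.72 in 769-P and 0.01, -0.01 and -0.03 in CAKI-1. The 3 nearest to CCN2 were ELL2, PLEKHA2 and HAUS6, at 0.21, 0.23 and 0.24. They fell by 0.43, 0.51 and 0.53 in 769-P and differed by 0.57, 0.45 and 0.42 in CAKI-1. None of the 6 belongs to the 10 genes or to the pathway lists.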

How the data were processed

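Total RNA of 8 libraries was sequenced. Per the labels, the submitters' processing notes name Trim Galore, TopHat2 2.1.0, SAMtools 1.3.1, HTSeq 0.6.0, DESeq and DESeq2, with build hg38. The annotation and strand setting are not given in the sources used here. For each cell line the authors deposited 1 table of a signal, that is, reads per gene divided by a size factor of the library, so each line was tested within its own table. Every value (100%) was a whole multiple of 1 read within 0.01 reads, so reads were recovered.

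Genes whose values averaged at least 1 in the line were tested on log2(value + 1) with limma 3.58.1 (lmFit, eBayes with trend, R 4.3.3), 2 libraries against 2, without a replicate block, called at an adjusted p under 0.05 (Benjamini-Hochberg). The difference between lines was the interaction in 1 fit of all 8 libraries. Each test was first checked on simulated data. Replicate numbers were not taken as pairs, since the labels say nothing of shared cultures or days. The deviations of same-numbered libraries were almost uncorrelated over all genes tested, which cannot exclude such pairs. Alternatives were other pseudocounts, filters, scalings and thresholds, a replicate block, the spread of all 8 libraries, edgeR 4.0.16 and DESeq2 1.42.0 on recovered reads, and left-out libraries. Thinning to 30979773 reads and left-out libraries with the spread of the other 7 were added after seeing the data. Levels per length used the union of exons in GENCODE 29.

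The members and lists were chosen with earlier results of these data known. Named in the text are all 10 members, from each other list and line up to 3 called genes with the largest rise and 3 with the largest fall whose conditions do not overlap, and the 3 genes nearest to CCN1 and CCN2. Values of such genes in the line where the rule does not name them, and those of TEAD3, were added after their values were seen. Counts of reads cover counting error only.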

Additional observations from a re-analysis of the deposited data

Results flagged for a closer look

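For 7 of the 10 genes the BCAA effect differed between the cell lines by the test of the difference itself (limma interaction, adjusted p under 0.05). The differences, 769-P minus CAKI-1 on the log2 scale, were 0.53 for WWTR1, -0.39 for TEAD4, -0.58 for LATS2, -0.78 for CCN1, -0.98 for CCN2, -1.01 for AMOTL2 and -0.42 for AXL. For CCN2 both libraries with BCAA lay below both without in 769-P and above both in CAKI-1. The cell lines also differ in their standing culture medium, RPMI and MEM, per the labels, so line and medium history cannot be told apart. Groups of 2 libraries are too small to test a single library as an outlier.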

How the results depend on the processing

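The alternatives other than a 2-fold minimum and left-out libraries changed none of the calls between the lines among the 10 genes: 7 differed each time, 1 further up and 6 further down in 769-P. WWTR1, LATS2, CCN1, CCN2, ANKRD1, AMOTL2 and AXL also kept their calls in 769-P under them, while those of YAP1 and TEAD4 did not. The number of the 10 called higher went from 2 to 1 in both lines with a pseudocount of 0.1, with no filter on low values, with quantile normalization, with the replicate block and after thinning to equal depth. It went to 1 also by edgeR in CAKI-1 and with the spread of all 8 libraries in 769-P. That spread called 5 of the 10 in CAKI-1, of which 2 were lower. In each of these settings that lowered the number, YAP1 was the gene whose call was lost. A minimum of 2-fold left 0 of the 10 called in 769-P (0 higher, 0 lower) and 0 in CAKI-1 (0 higher, 0 lower), and 1 difference between the lines (0 further up, 1 further down). It left 4 genes of the other lists in 769-P (0 higher, 4 lower) and 0 in CAKI-1 (0 higher, 0 lower), against 29 and 12 without it.

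With a library left out and the spread from the 3 that remained in the line, 3 to 5 of the 10 were called in 769-P (1 higher, 2 to 4 lower) and 0 in CAKI-1 (0 higher, 0 lower). Of the other lists, 7 to 17 were called in 769-P (3 to 4 higher, 4 to 13 lower) and 0 in CAKI-1 (0 higher, 0 lower). The difference between the lines was called for 6 to 8 of the 10. With the spread from the other 7 libraries, 7 to 8 of the 10 were called in 769-P (1 higher, 6 to 7 lower) and 2 to 4 in CAKI-1 (0 to 3 higher, 1 to 2 lower). Without replicate 1 with BCAA of CAKI-1 these were 0 higher and 2 lower, and without replicate 1 without BCAA 1 was higher. Of the other lists, the number called higher in 769-P lay between 6 and 11, with 7 without replicate 1 with BCAA and 6 without replicate 1 without BCAA. The lone library of a group is then assumed to vary like the other groups.

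The sign of CCN1 in CAKI-1, which was not called, turned to -0.00058 by edgeR, to -0.0577 without replicate 1 with BCAA and to -0.00109 without replicate 1 without BCAA, over a range of -0.0577 to 0.0789 with a library left out. That of ANKRD1 between the lines, also not called, turned to 0.0996 without replicate 1 with BCAA of CAKI-1, over a range of -0.273 to 0.0996. The cause was not tested.

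The labels do not say whether libraries with the same replicate number shared a culture or day. The correlation over genes of the differences between numbers 1 and 2, with against without BCAA, was 0.0095 in 769-P and 0.0215 in CAKI-1. It takes in all genes tested, low ones included, so it cannot exclude shared cultures or days. With the replicate number as a block, 8 of the 10 were called in 769-P (1 higher, 7 lower) and 2 in CAKI-1 (1 higher, 1 lower), and 7 differed between the lines. Replicates differed by more than counting noise, with a chi-square of 3.26 to 11.9 per degree of freedom. Only 2 libraries a group limit the precision of every value. The fewest reads of a member were the 310 of ANKRD1 in a 769-P library, so counting error weighs most on ANKRD1 and CCN2 there.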
